A study of Homo sapiens with 18 samples.

Results

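ADH1B, FMO2, FGL2, INMT, APCDD1, MXRA5, CFTR and LRRC15 are 8 genes that were chosen by their values in the present libraries, for large falls in senescence or under inhibitors of N-myristoyltransferase (NMTi). They were found by symbol among 28266 rows of a count table, and each passed the filter on low counts that left 14341 genes for testing. Because the same comparisons selected the genes, their levels and fold changes are given as a description and carry no p-value. The data did not bear out a common pattern of silencing. ADH1B, FMO2, FGL2, APCDD1 and CFTR were lower in senescent than in control cells, whereas INMT, MXRA5 and LRRC15 were higher in senescence and lower once an NMTi was added to senescent cells.

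RNA came from IMR90 ER:RAS cells, cultured human lung fibroblasts that carry oncogenic RAS fused to the hormone-binding part of the oestrogen receptor. All 6 groups carried this fusion. The 3 senescent groups had received 100 nM 4-hydroxytamoxifen (4OHT), which activates it, and the 3 control groups had received the solvent DMSO. After 7 days each state was given DMSO, IMP1088 at 300 nM or DDD86481 at 1.5 µM for 3 days, and RNA was collected on day 10. Both compounds are NMTi, so their targets are the enzymes that attach myristate to the N-terminal glycine of proteins, and the comparison asked how each gene responded to the inhibitor in each state. Each group had 3 libraries from 1 cell line, and the labels do not say whether these were separate cultures, while the study's supplement counts them as independent experiments. Errors and p-values measure the spread between these libraries.

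Lung fibroblasts in tissue are not uniform. Fibroblasts of the alveolar wall and of the outer coat of vessels and airways are recognised by enzymes and secreted proteins such as ADH1B, FMO2, INMT and FGL2, while fibroblasts exposed to TGF-beta turn to contractile and matrix genes, among which MXRA5 and LRRC15 are counted. APCDD1 belongs to the feedback that limits WNT signalling, and CFTR is an anion channel best known from epithelium. Senescence is a stable arrest of the cell cycle with a broad change of transcription.

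Libraries held 16143716 to 23189950 counts. Levels are given as counts per 1000000 counts (CPM) scaled by the trimmed mean of M values (TMM), and the floor of a library, below which a gene can go uncounted, was taken as 3 counts or 0.121 to 0.187 CPM. Markers of the state followed the labels. The cell cycle inhibitor CDKN1A was at 377 ± 34.6 CPM (SD, n = 3) in control and 2126 ± 159 CPM in senescent libraries with DMSO (log2 fold change 2.50 ± 0.11 SE, edgeR quasi-likelihood test, adjusted p = 7.88e-14), and the proliferation marker MKI67 at 21.6 ± 9.81 and 0.161 ± 0.0439 CPM. All 9 fibroblast markers were above the floor in every group, with a summed level of 23800 to 32800 CPM in control and 22100 to 23000 CPM in senescent cells with DMSO, and 15400 to 16800 CPM in senescent cells with an NMTi. Of 6 epithelial markers, KRT5, KRT14, SFTPB and SFTPC had no count in any library, and the summed level of all 6 was at most 1.49 CPM. CD3E was at 0, yet the 4 immune markers, which include CD68 and CD14, summed to 15.2 to 20.1 CPM in control and 119 to 150 CPM in senescent cells with DMSO, the 4 endothelial markers to 1.17 to 1.73 and 10.3 to 10.7 CPM, and the 2 smooth muscle markers to 15.6 to 16.4 and 0.22 to 0.374 CPM. These shifts accompanied every senescence comparison below, and their part in it was not tested. Control DMSO replicate 3 stood apart on the third principal component, with a score of 57.3 against 14.8 and 27.8 for replicates 1 and 2, and its weight in the fold changes of ADH1B, INMT, MXRA5, LRRC15 and CFTR is given beside them. In these bulk libraries fewer cells of a type and less RNA per cell cannot be told apart.

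Promoter windows were read for 7 of the 8 genes from a RefSeq table on GRCh38.p14. The 4 below belong to genes that were at the floor in senescent cells (ADH1B, FGL2) or higher in senescent than in control cells with DMSO (INMT, LRRC15). MXRA5 was also higher in senescence but is not shown, and its window held no match to any motif named below. Each is the 250 bases before the annotated gene start, 5′ to 3′ on the gene's own strand, and capitals mark matches on either strand to TATAAA (the TATA box), TGANTCA (AP-1), CCAAT (NF-Y), GGGCGG (SP1) or CACGTG (the E-box). The matches did not overlap each other.
ADH1B, chr4:99321402-99321651, minus strand: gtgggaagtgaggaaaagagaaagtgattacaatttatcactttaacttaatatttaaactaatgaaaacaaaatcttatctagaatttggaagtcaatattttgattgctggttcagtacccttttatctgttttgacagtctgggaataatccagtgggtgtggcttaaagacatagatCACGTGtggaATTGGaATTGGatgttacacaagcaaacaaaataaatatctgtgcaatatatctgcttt
FGL2, chr7:77199820-77200069, minus strand: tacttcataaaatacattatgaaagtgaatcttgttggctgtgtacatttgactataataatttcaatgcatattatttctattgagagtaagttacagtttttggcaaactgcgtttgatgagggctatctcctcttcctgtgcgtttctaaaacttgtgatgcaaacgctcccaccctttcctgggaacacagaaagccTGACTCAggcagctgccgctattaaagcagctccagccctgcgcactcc
INMT, chr7:30751885-30752134, plus strand: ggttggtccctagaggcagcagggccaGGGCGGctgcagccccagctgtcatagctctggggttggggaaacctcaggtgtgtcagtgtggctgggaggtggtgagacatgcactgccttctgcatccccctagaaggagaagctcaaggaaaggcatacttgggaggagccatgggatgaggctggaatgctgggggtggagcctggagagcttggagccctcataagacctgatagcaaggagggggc
LRRC15, chr3:194369744-194369993, minus strand: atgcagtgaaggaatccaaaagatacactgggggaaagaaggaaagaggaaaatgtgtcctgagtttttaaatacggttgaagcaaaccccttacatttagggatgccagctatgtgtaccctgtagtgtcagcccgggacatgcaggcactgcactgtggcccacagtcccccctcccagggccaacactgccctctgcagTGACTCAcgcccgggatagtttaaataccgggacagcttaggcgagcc

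The windows of FGL2 and LRRC15 each held a TGACTCA, the letters that AP-1 factors recognise, starting at base -49 and base -48 from the gene start. These letters, written TGANTCA, occur in 6.67% of the 18292 promoters of genes in the count table, over windows of 300 bases that run on to 50 bases past the start. FGL2 and LRRC15 moved in opposite directions in senescence. ADH1B had a CACGTG at base -69, which 8.44% of promoters hold, and CCAAT on the reverse strand at bases -53 and -59 (36.4% of promoters hold CCAAT). INMT had GGGCGG at base -223, present in 54% of promoters. TATAAA was found in none of the 7 windows and in 10.1% of promoters.

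CpG content varied among the windows of the 7 genes. The ratio of observed to expected CpG was 0.0408 for INMT and 0.113 for ADH1B, with 2.5% and 7.86% of promoters below them, and 0.344 for FGL2 and 0.359 for LRRC15, with 27% and 28% below. It was higher for CFTR (0.56), MXRA5 (0.725) and APCDD1 (0.786), against a median of 0.729 and quartiles of 0.316 and 0.898 over the 18292 promoters. Of the genes that were lower in senescence, ADH1B, FGL2 and CFTR were below the median and APCDD1 was above it. Methylation was not measured in these libraries.

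**Figure D1:**
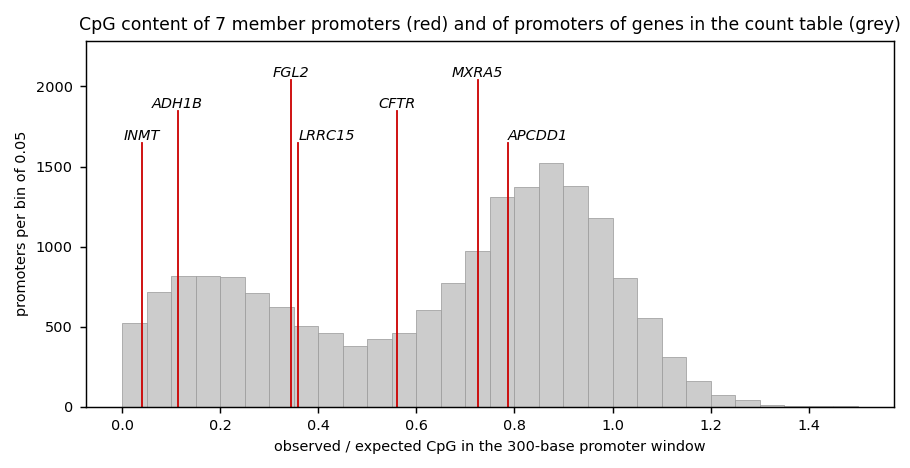
Histogram of the observed to expected CpG ratio of 300-base promoter windows (x axis) for 18292 genes of the count table (y axis, promoters per bin), with a red line for each of 7 genes. INMT (0.0408) and ADH1B (0.113) lie at the low end, and APCDD1 (0.786) is the only line above the median of 0.729.

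Control cells with DMSO differed widely among the 8 genes. On a scale that divides CPM by the kilobases of the canonical transcript (RPKM), ADH1B and FGL2 both stood at 27.6 RPKM, FMO2 at 14.1, INMT at 6.51, APCDD1 at 4.95, MXRA5 at 1.89, LRRC15 at 0.788 and CFTR at 0.582. All further levels are CPM and are compared within a gene.

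ADH1B, a class I alcohol dehydrogenase that oxidises ethanol and retinol (GRCh38.p14, chr4:99304971-99321401, minus strand), had 93.1, 116 and 128 CPM in the 3 control libraries with DMSO. With IMP1088 the control libraries held 101, 134 and 109 CPM, and with DDD86481 they held 69.0, 143 and 106 CPM. These 3 groups overlapped, and the log2 fold change was 0.03 ± 0.20 with IMP1088 and -0.08 ± 0.20 with DDD86481, or 0.14 and 0.02 without control DMSO replicate 3. All 9 senescent libraries had 0 counts, so that ADH1B was at least 601-fold lower in senescent than in control cells with DMSO. Nothing could be read of the NMTi in senescent cells, where both groups were at the floor. Of its near-identical paralogs ADH1A never passed 9 counts in a library, and ADH1C was at 1.52 ± 0.407 CPM in control cells with DMSO and at 0 in all senescent libraries. How reads shared between these paralogs were counted was not given in the sources used here.

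FMO2, of the flavin-containing monooxygenases, a family that oxidises amines and sulphur compounds (chr1:171185300-171212686), behaved like ADH1B in senescence but responded to NMTi in control cells. The control libraries with DMSO held 68.4, 71.8 and 80.5 CPM. They held 31.8, 43.96 and 45.1 CPM with IMP1088 and 28.6, 39.2 and 42.4 CPM with DDD86481. Every inhibited control library lay below every DMSO library, by 0.87 ± 0.16 on the log2 scale with IMP1088 and 1.00 ± 0.16 with DDD86481. In the 9 senescent libraries FMO2 had 0 counts, at least 394-fold lower with DMSO.

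INMT, which methylates tryptamine and other indole amines (chr7:30752135-30757602, plus strand), was the enzyme that senescence left in place. It had 15.8, 13.8 and 20.5 CPM in control and 21.6, 22.7 and 21.6 CPM in senescent cells with DMSO, a log2 fold change of 0.40 ± 0.14. Without control DMSO replicate 3, the highest of its group, the difference was 0.57. The ranges of the 2 groups did not overlap. With IMP1088 the senescent libraries fell to 1.10, 1.62 and 1.12 CPM and with DDD86481 to 1.91, 1.72 and 1.47 CPM, or 20 to 35 counts each. The log2 fold change was -4.10 ± 0.19 and -3.68 ± 0.18, a 17.1-fold and a 12.8-fold difference. Control cells moved in the same direction but less, from 16.7 ± 3.43 CPM to 10.4 ± 1.44 CPM with IMP1088 (-0.67 ± 0.15) and 8.97 ± 0.580 CPM with DDD86481 (-0.89 ± 0.15), or by -0.50 and -0.72 without control DMSO replicate 3. Subtracting the effect in control cells from that in senescent cells gave -3.42 ± 0.24 and -2.79 ± 0.24 on the log2 scale, or -3.59 and -2.96 without that library. Of INMT's exonic bases 11.1% lie in the readthrough gene INMT-MINDY4 and 5.51% opposite CRHR2, both of which had 0 or 1 count in any library.

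FGL2, a fibrinogen-like protein that acts as a prothrombinase at the membrane and as an immune regulator when secreted (chr7:77193369-77199819, minus strand), had 106, 126 and 120 CPM in control cells with DMSO. It had 62.1, 84.4 and 76.3 CPM with IMP1088 and 81.1, 67.5 and 55.6 CPM with DDD86481. The NMTi groups overlapped each other and lay below DMSO, with log2 fold changes of -0.66 ± 0.16 and -0.79 ± 0.16. The 9 senescent libraries held 0 to 3 counts each. With DMSO the sum was 1 count against 8192 in control cells, a 5930-fold difference with a 95% counting interval from 1060 to 234000. An antisense gene not listed in the count table covers 6.05% of FGL2's exonic bases, and another covers 3.89% of FMO2's. The study's methods describe a directional kit and a first-strand alignment setting, and whether these counts were made by strand was not given in the sources used here.

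APCDD1, a membrane glycoprotein that binds WNT proteins and blocks their signal (chr18:10454635-10489949, plus strand), was lower in senescence and lower again with NMTi. Control libraries with DMSO held 18.7, 19.5 and 18.3 CPM and senescent ones 0.679, 0.374 and 0.714 CPM, a log2 fold change of -4.97 ± 0.21. Senescent libraries with IMP1088 had 2, 6 and 2 counts and those with DDD86481 had 0, 1 and 0 counts, against 11, 6 and 13 counts with DMSO on the raw scale. The log2 fold change with IMP1088 was -1.67 ± 0.42, and -2.38 without senescent IMP1088 replicate 2. With DDD86481 the ratio of summed counts was 32-fold, with a 95% counting interval from 5.31 to 1300. Control cells showed a small fall, to 14.3 ± 0.903 CPM with IMP1088 (-0.40 ± 0.14) and 13.8 ± 0.234 CPM with DDD86481 (-0.45 ± 0.14), and their ranges did not overlap that of DMSO.

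MXRA5, a secreted matrix protein with leucine-rich repeats and immunoglobulin domains that TGF-beta induces (chrX:3308565-3346652, minus strand), was highest in senescent cells. They held 60.4, 70.3 and 49.6 CPM with DMSO, against 29.9, 18.3 and 7.26 CPM in control cells. The control group was the most scattered of the 8 genes, and its lowest library was control DMSO replicate 3. The log2 fold change was 1.69 ± 0.30, and 1.31 without that library. Senescent libraries with IMP1088 fell to 4.89, 6.76 and 7.12 CPM and with DDD86481 to 5.19, 4.91 and 8.09 CPM, below every library of the other groups apart from control DMSO replicate 3. The log2 fold changes were -3.26 ± 0.33 and -3.32 ± 0.34. In control cells the means of MXRA5 were higher with NMTi, with 25.9 ± 5.40 CPM under IMP1088 and 30.5 ± 2.48 CPM under DDD86481, and the ranges overlapped that of DMSO. The log2 fold changes there were 0.48 ± 0.30 and 0.71 ± 0.30, or 0.10 and 0.34 without control DMSO replicate 3. The effects in senescent minus control cells were -3.74 ± 0.45 and -4.03 ± 0.45, or -3.37 and -3.66 without control DMSO replicate 3.

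LRRC15, a leucine-rich repeat protein on the surface of fibroblasts exposed to TGF-beta (chr3:194355249-194369743, minus strand), rose most in senescence among the 8 genes. It had 6.85, 4.47 and 2.59 CPM in control and 38.6, 36.9 and 37.1 CPM in senescent cells with DMSO, a log2 fold change of 3.00 ± 0.26, and 2.73 without control DMSO replicate 3. NMTi took the control libraries to 0.652, 0.356 and 0.583 CPM with IMP1088 and 0.522, 0.784 and 1.26 CPM with DDD86481, or 8 to 27 counts. The log2 fold changes were -3.14 ± 0.39 and -2.42 ± 0.36, and -3.42 and -2.69 without that library. Senescent cells kept most of the transcript, with 19.1, 20.3 and 20.6 CPM with IMP1088 and 15.4, 20.1 and 30.7 CPM with DDD86481, log2 fold changes of -0.91 ± 0.23 and -0.77 ± 0.23. LRRC15 was thus the reverse of INMT and MXRA5, with effects in senescent minus control cells of 2.24 ± 0.47 and 1.65 ± 0.44, or 2.51 and 1.92 without control DMSO replicate 3.

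CFTR, the chloride and bicarbonate channel that is defective in cystic fibrosis (chr7:117480025-117668665, plus strand), had low levels throughout. Control libraries with DMSO held 4.96, 2.86 and 2.79 CPM, and senescent ones 1.05, 1.12 and 0.549 CPM, a log2 fold change of -1.98 ± 0.35, and -2.12 without control DMSO replicate 3. NMTi moved it in opposite directions in the 2 states. Control libraries rose to 12.0, 8.37 and 10.8 CPM with IMP1088 (1.54 ± 0.26) and 10.7, 6.61 and 10.5 CPM with DDD86481 (1.39 ± 0.26), above every DMSO library. Without control DMSO replicate 3 these were 1.41 and 1.25. Senescent libraries had 8, 4 and 7 counts with IMP1088 (-1.35 ± 0.53) and 5, 6 and 0 counts with DDD86481 (-2.10 ± 0.60), against 17, 18 and 10 counts with DMSO. With so few counts the fall in senescent cells is less firm than the rise in control cells. WNT2 lies next to CFTR on the opposite strand and shares 1% of CFTR's exonic bases. WNT2 was at 53.8 ± 2.60 CPM in control and 0.103 ± 0.128 CPM in senescent cells with DMSO, and at 45.9 ± 2.77 and 41.9 ± 2.05 CPM in control cells with IMP1088 and DDD86481, lower where CFTR was higher. CTTNBP2, also on the opposite strand, shares 0.303% of CFTR's exonic bases. It was at 13.7 ± 4.90 CPM in control and 3.48 ± 1.01 CPM in senescent cells with DMSO, and its means in control cells were higher with NMTi, as those of CFTR were, at 20.8 ± 4.30 CPM with IMP1088 and 23.6 ± 1.07 CPM with DDD86481. The part of these genes in the counts of CFTR was not tested.

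**Figure D2:**
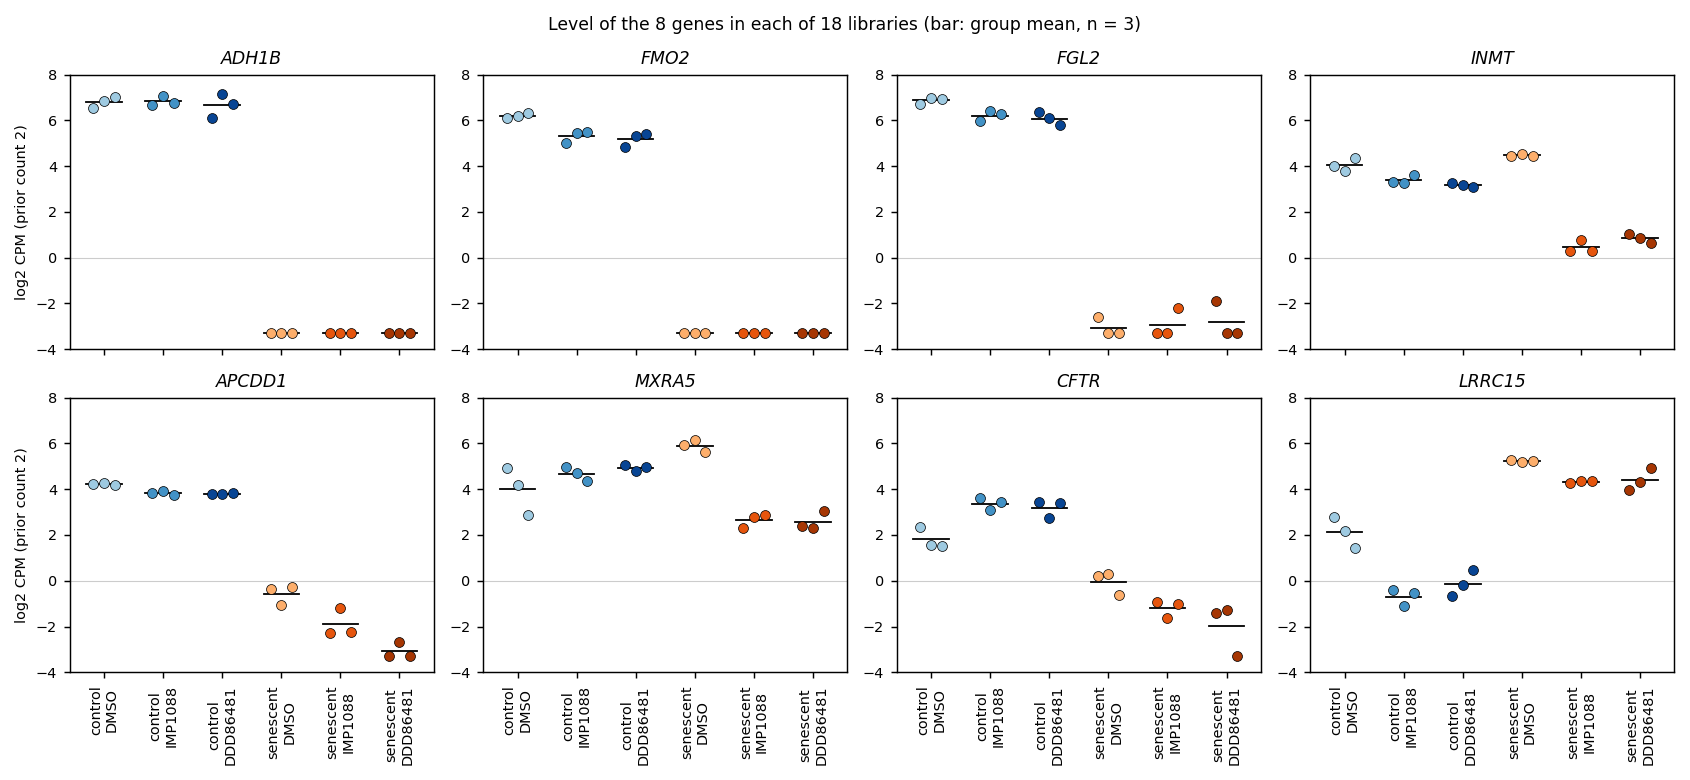
Level of each gene in the 18 libraries (y axis, log2 CPM with a prior count of 2), in the 6 groups on the x axis. Points are libraries and bars are group means (n = 3). ADH1B, FMO2 and FGL2 lie at the bottom in all senescent libraries, INMT and MXRA5 are highest in senescent cells with DMSO and drop with both inhibitors, and CFTR is higher with inhibitors in control cells and lower in senescent cells.

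Counted over the 8 genes, 5 were lower and 3 higher in senescence with DMSO, each with ranges that did not overlap. The rule used this comparison, so nothing is read from the count. Over all genes 36% were called lower and 32.5% higher at an adjusted p of 0.05. In senescent cells INMT, APCDD1, MXRA5, CFTR and LRRC15 were lower with each inhibitor and the other 3 were at the floor, where 23.9% of all genes were called lower and 20.6% higher with IMP1088, and 23.1% and 20.1% with DDD86481. In control cells FMO2, FGL2, INMT, APCDD1 and LRRC15 were lower, CFTR was higher, and ADH1B and MXRA5 overlapped with DMSO. There 17.4% of all genes were called lower and 16.3% higher with IMP1088, and 18.7% and 17.8% with DDD86481. The DMSO libraries of each state serve both inhibitors. The difference between states was called for 26.2% of all genes with IMP1088 and 30.3% with DDD86481.

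**Figure D3:**
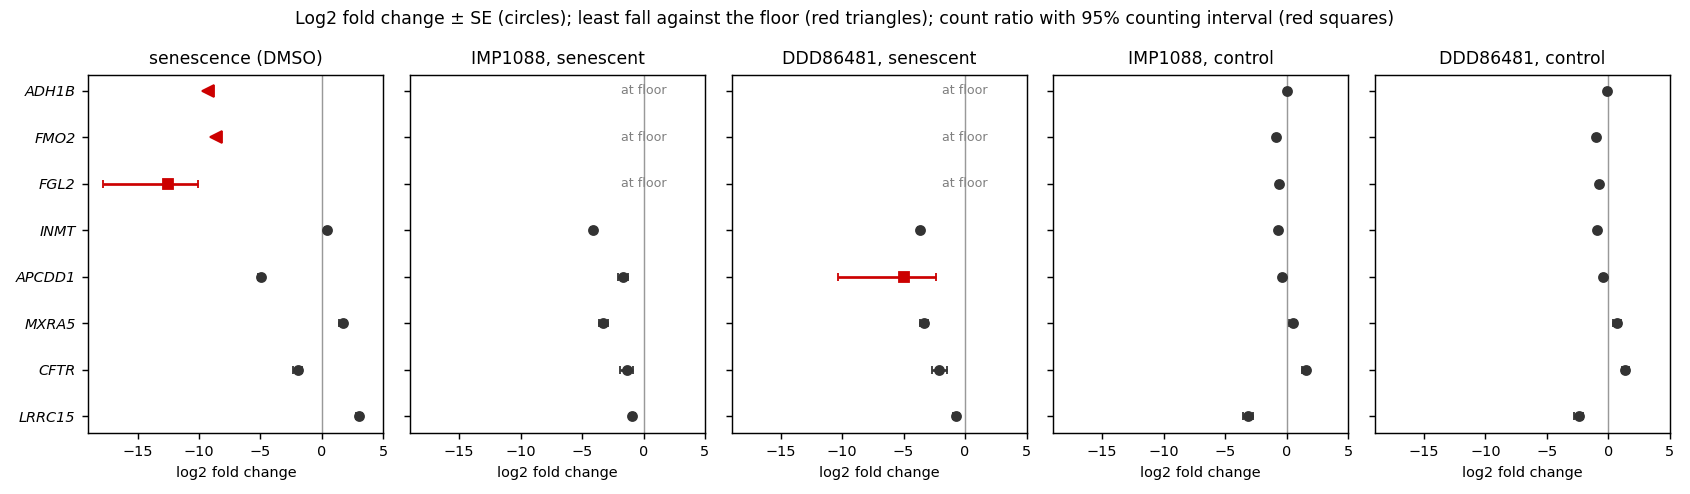
Log2 fold change of the 8 genes in 5 comparisons (x axis). Circles show the edgeR estimate ± SE, triangles the least fall allowed by a floor of 3 counts, and squares a ratio of summed counts with its 95% counting interval. Only ADH1B, FMO2, FGL2, APCDD1 and CFTR lie left of 0 in senescence, and LRRC15 fell further in control than in senescent cells.

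The 2 inhibitors were given at different doses, and at those doses no gene of the table was called different between them by edgeR's quasi-likelihood test, or 0% in senescent and 0% in control cells. At an unadjusted p under 0.05 there were 570 genes (3.97%) in senescent and 141 (0.983%) in control cells, and DESeq2 called 0 in each. Both shares are below what this threshold passes when no gene differs, so the test was cautious here. For INMT in senescent cells IMP1088 minus DDD86481 was -0.41 on the log2 scale, with a 95% interval from -0.88 to 0.05. The interval for LRRC15 was -0.60 to 0.32 in senescent and -1.74 to 0.30 in control cells, and for MXRA5 it was -0.65 to 0.76 in senescent cells. The ranges of the 2 inhibitors overlapped for the 8 genes in control cells, and in senescent cells APCDD1, with 2 to 6 counts against 0 to 1, was the exception. The intervals do not show that the compounds act alike.

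Genes of the same pathways were then counted from 7 lists that left out the 8 genes, beside the shares over all genes given above. The lists were chosen with earlier results of these data known, so a tilt in them is not independent support. A listed gene could also pass the filter through the group where it was high. Of 13 tested genes that oxidise alcohols and retinol or carry retinoids, 10 fell and 2 rose in senescence, with a median log2 fold change of -1.03 against -0.051 over all genes. CRABP2, which carries retinoic acid to its receptor, fell from 41.2 ± 12.2 to 3.15 ± 0.547 CPM (-3.70 ± 0.21, adjusted p = 2.94e-12). CYP26B1, which breaks retinoic acid down, rose from 0.549 ± 0.164 to 28.0 ± 1.75 CPM (5.64 ± 0.22, adjusted p = 1.06e-14). Its pattern with NMTi in senescent cells was that of INMT, at 3.04 ± 0.504 CPM with IMP1088 (-3.20 ± 0.18, adjusted p = 1.24e-10) and 3.26 ± 0.439 CPM with DDD86481 (-3.10 ± 0.18, adjusted p = 1.77e-10). In senescent cells 6 of the 13 fell and 4 rose with each inhibitor. In control cells 3 fell and 0 rose with each. Without control DMSO replicate 3, 2 fell with IMP1088 and 1 with DDD86481, and 0 rose.

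Of 19 tested genes that oxidise or conjugate foreign compounds and amines, 11 fell and 2 rose in senescence (4 rose without control DMSO replicate 3). HNMT, which methylates histamine, fell from 33.3 ± 5.24 to 1.67 ± 0.246 CPM (-4.30 ± 0.17, adjusted p = 1.01e-14). In control cells 11 of the 19 fell with IMP1088 and 9 with DDD86481, and 1 rose with each. The fall was led by NNMT, a methyltransferase of nicotinamide, which went from 55.9 ± 17.5 CPM to 16.3 ± 2.88 CPM with IMP1088 (-1.78 ± 0.22, adjusted p = 3.97e-06) and 17.1 ± 1.95 CPM with DDD86481 (-1.71 ± 0.22, adjusted p = 6.57e-06). In senescent cells 3 fell with each inhibitor, and 3 rose with IMP1088 and 4 with DDD86481.

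Among 8 tested genes with a fibrinogen-like domain, 5 fell and 2 rose in senescence, with a median of -2.33, or -1.37 with genes at the floor set to their bound. MFAP4, a protein of elastic fibres, fell from 768 ± 65.3 to 23.3 ± 0.842 CPM (-5.04 ± 0.13, adjusted p = 1.11e-17). ANGPT2, a ligand of the endothelial receptor TIE2, rose from 0.325 ± 0.138 to 22.9 ± 6.01 CPM (6.09 ± 0.30, adjusted p = 3.58e-13). With NMTi 3 fell in senescent cells with each inhibitor, and 0 rose with IMP1088 and 1 with DDD86481. In control cells 2 fell and 3 rose with each, of which 1 rose without control DMSO replicate 3.

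WNT antagonists and feedback targets did not follow APCDD1 in senescence. Of 15 tested, 8 rose and 5 fell, with a median of 0.66. APCDD1L, the paralog of APCDD1, rose from 5.96 ± 1.67 to 111 ± 7.05 CPM (4.21 ± 0.19, adjusted p = 4.97e-14), while the secreted antagonists FRZB (71.5 ± 3.47 to 1.42 ± 0.538 CPM, -5.66 ± 0.23, adjusted p = 1.45e-14) and SFRP1 (904 ± 118 to 106 ± 5.81 CPM, -3.10 ± 0.11, adjusted p = 9.17e-16) fell. With NMTi in senescent cells none of the 15 rose, and 11 fell with IMP1088 and 12 with DDD86481. NKD2, an intracellular inhibitor of the pathway, fell from 16.7 ± 1.65 CPM to 2.03 ± 0.958 CPM with IMP1088 (-3.02 ± 0.33, adjusted p = 3.76e-07). In control cells 4 fell with IMP1088 and 3 with DDD86481, and LEF1, a transcription factor of the pathway, was the 1 that rose, from 4.78 ± 0.835 CPM to 11.1 ± 1.94 CPM (1.20 ± 0.17, adjusted p = 1.48e-05) and 10.4 ± 0.666 CPM (1.12 ± 0.17, adjusted p = 3.55e-05).

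The list of TGF-beta-induced matrix and myofibroblast genes, beside MXRA5 and LRRC15, was split in senescence, with 8 of 23 higher and 11 lower. COL10A1, a short-chain collagen, rose from 0.194 ± 0.109 to 66.2 ± 9.62 CPM (8.42 ± 0.25, adjusted p = 1.33e-16). SULF1, an extracellular sulphatase, fell from 153 ± 33.9 to 2.79 ± 1.03 CPM (-5.76 ± 0.25, adjusted p = 5e-14). NMTi lowered most of the list in both states. In senescent cells 18 of 23 fell and 2 rose with each inhibitor, and in control cells 15 fell with IMP1088, 14 with DDD86481 and 1 rose with each. TAGLN, an actin-binding protein of contractile cells, went from 78.2 ± 4.23 CPM in senescent cells with DMSO to 15.8 ± 1.57 CPM with IMP1088 (-2.30 ± 0.17, adjusted p = 3.4e-09) and 14.9 ± 1.23 CPM with DDD86481 (-2.39 ± 0.17, adjusted p = 2.74e-09). MYH11, the smooth muscle myosin, fell in control cells from 4.01 ± 0.753 CPM to 0.698 ± 0.144 CPM with IMP1088 (-2.51 ± 0.33, adjusted p = 8.66e-06).

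Beside CFTR, 22 ABCC transporters and genes of chloride or bicarbonate transport were tested, of which 11 rose and 6 fell in senescence. Without control DMSO replicate 3, 11 rose and 9 fell. The bicarbonate cotransporter SLC4A7 rose from 26.0 ± 5.95 to 395 ± 42.1 CPM (3.92 ± 0.15, adjusted p = 6.81e-15), and its relative SLC4A4 fell from 111 ± 33.7 to 18.3 ± 3.88 CPM (-2.61 ± 0.20, adjusted p = 5.36e-10). In control cells, where CFTR rose with both inhibitors, 3 of the 22 rose and 2 fell with IMP1088 and 6 rose and 2 fell with DDD86481. Of the counts with DDD86481, 4 rose and 2 fell without control DMSO replicate 3. The calcium-activated chloride channel ANO1 fell there, from 35.5 ± 10.3 CPM to 16.7 ± 3.64 CPM with IMP1088 (-1.09 ± 0.20, adjusted p = 0.000286). In senescent cells 10 fell with IMP1088 and 7 with DDD86481, and 3 rose with each.

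The broadest of the 7 lists held genes of resting lung fibroblasts. Of 26 tested, 21 fell and 2 rose in senescence, with a median of -3.85. OGN, a small matrix proteoglycan, had 3.39 ± 0.462 CPM in control and 0 counts in senescent cells with DMSO, at least 18.1-fold lower (adjusted p = 6.56e-09). CES1, a carboxylesterase, rose from 0.217 ± 0.0488 to 10.6 ± 0.159 CPM (5.58 ± 0.30, adjusted p = 1.4e-12). With NMTi the list had no such tilt. In control cells 9 rose with each inhibitor, 4 fell with IMP1088 and 5 with DDD86481, and TCF21, a transcription factor of lung mesenchyme, rose from 73.0 ± 3.27 CPM to 172 ± 5.86 CPM with IMP1088 (1.24 ± 0.09, adjusted p = 6.11e-09). In senescent cells 8 fell with each, 4 rose with IMP1088 and 6 with DDD86481. ITGA8, an integrin subunit, fell there from 5.91 ± 2.32 CPM to 0.564 ± 0.246 CPM with IMP1088 (-3.36 ± 0.46, adjusted p = 7.19e-06).

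**Figure D4:**
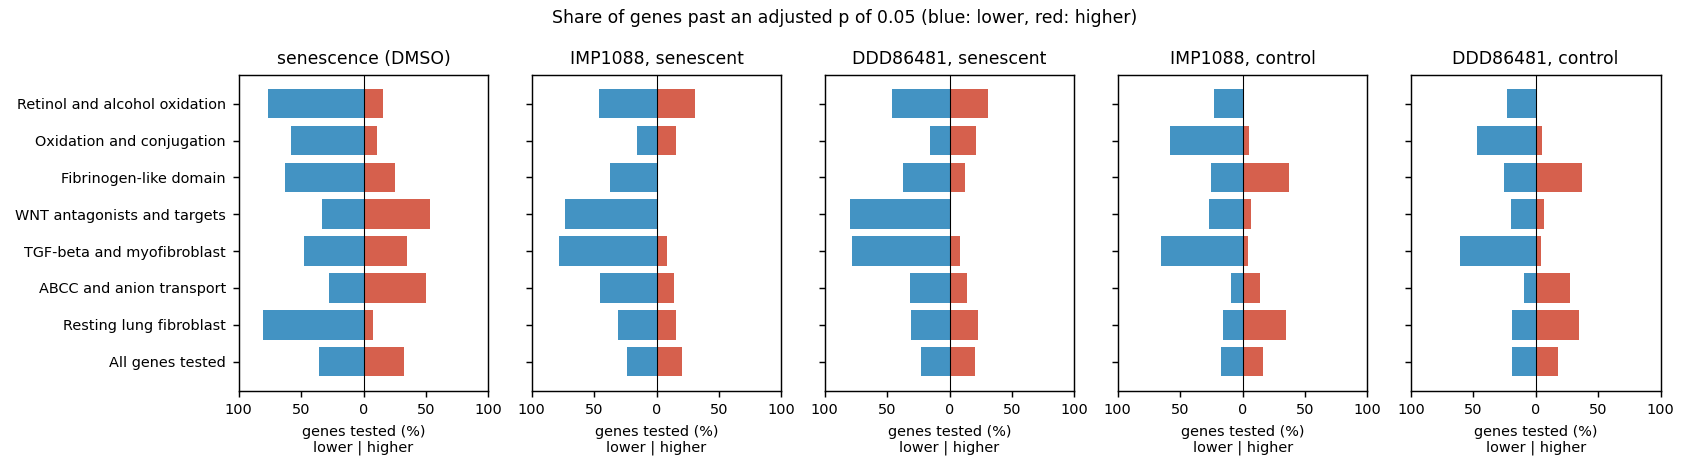
Share of tested genes called higher (red) or lower (blue) at an adjusted p of 0.05 (x axis, percent) in 7 lists and over all genes, in 5 comparisons. The resting lung fibroblast list is mostly lower in senescence (21 of 26), and the TGF-beta and myofibroblast list is mostly lower with both inhibitors in both states.

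Genes with the most similar pattern were found by the root mean square distance between centred log2 CPM values over the 18 libraries, all of which share their library depths. ADH1B was nearest to the chemokine CXCL12 (0.456) and the collagen COL14A1 (0.535), and FMO2 to the prostacyclin synthase PTGIS (0.288) and the proteoglycan DCN (0.403). FGL2 was nearest to PTGIS (0.494) and CXCL12 (0.626). PTGIS fell with NMTi in control cells as FMO2 did, from 74.1 ± 13.9 CPM to 45.1 ± 1.77 and 45.2 ± 4.99 CPM, while CXCL12, like ADH1B, did not, with 85.8 ± 8.96, 101 ± 5.47 and 95.8 ± 10.4 CPM. Both were picked for likeness over these same libraries, so nothing further is read from the match.

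INMT was nearest to DENND2A (0.561) and TNFSF18 (0.578), MXRA5 to the plasminogen activator PLAT (0.541) and PDZD2 (0.567), and LRRC15 to the ectonucleotidase NT5E (0.478). DENND2A had 63.1 ± 4.99 CPM in senescent cells with DMSO and 10.1 ± 0.954 and 10.8 ± 1.33 CPM with IMP1088 and DDD86481. APCDD1 was nearest to ZFPM2 (0.369) and MEST (0.571), and CFTR to IL16 (0.479) and the receptor KIT (0.582). With a prior count of 0.5 in place of 2 the nearest gene became PTGIS for ADH1B and KIT for CFTR. COL14A1, DCN, TNFSF18, MEST and PDZD2 were then no longer among the 2 nearest genes.

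Neighbouring genes within 500 kb were counted for each member, too few around each to compare with the shares over all genes. Those shares were 36% lower and 32.5% higher in senescence. Around ADH1B 4 of 7 tested neighbours fell and 3 rose in senescence, and around FMO2 4 of 8 fell and 2 rose. Around FGL2 4 of 7 fell and 2 rose, and around INMT 4 of 6 fell and 1 rose. Around CFTR 2 of 3 fell and 0 rose, and around APCDD1 1 of 3 fell and 1 rose. Around MXRA5 2 of 5 fell and 3 rose, and around LRRC15 3 of 7 fell and 3 rose. With IMP1088 in senescent cells, where 23.9% of all genes were lower and 20.6% higher, 1 of 6 neighbours of INMT fell and 2 rose. In that comparison 4 of 5 neighbours of MXRA5 fell and 0 rose.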

How the data were processed

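Poly(A) RNA of 18 IMR90 ER:RAS libraries was sequenced. The file deposited by the authors is a matrix of unnormalized counts, 1 row for each gene symbol. The submitters' processing notes name hg38, DRAGEN, STAR 2.7.8a and DESeq2 1.32.0, whereas the study's methods name hg19 and Tophat with a first-strand setting for human RNA-seq in general, after a directional library kit, and its reporting summary lists HTSeq. The table holds 3 of 3 newer symbols searched and 0 of 3 older ones, so positions are from RefSeq on GRCh38.p14. GENCODE gave the lengths of transcripts and the overlaps of exons. Which of these counted the present libraries, and with which strand setting, is not given in the sources used here.

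Groups came from the labels. filterByExpr in edgeR 4.0.16 kept 14341 genes, with 99.962% of counts, and counts were scaled by TMM and tested in 1 quasi-likelihood fit of 6 groups, with Benjamini-Hochberg adjustment over all genes and a threshold of 0.05. For bounds, and for list medians with genes at the floor, a group whose libraries all held 3 counts or fewer was set to their highest floor. Where a group of the 8 genes held 1 to 3 counts in sum, a ratio of summed counts with a Clopper-Pearson interval is given in place of the bound. Floors and intervals cover counting error only, since reads had no molecular identifiers. The 8 genes, the 7 lists and the naming rule (the largest called rises and falls of each list with a mean of at least 1 CPM) were chosen with earlier results of these data known, and members of a list were named by that rule, some left out where their call was lost on leaving out a library. A few genes that the naming rules pick are not reported here. The test was checked on simulated counts. Between replicates of a group the chi-square was 5.26 per gene or more, which leaves no duplicated library. Libraries with the same number deviated together from the means of their groups in some pairs of groups, with every r above 0.1. These were control DMSO and control IMP1088 (lowest r 0.123), control IMP1088 and control DDD86481 (0.101), and senescent IMP1088 and senescent DDD86481 (0.117). The main fit had no term for such pairing, which entered only as a replicate block among the alternatives. Alternatives were DESeq2 1.42.0, other scalings, no filter, a replicate block, fits of only the groups compared, and leaving out each library.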

Additional observations from a re-analysis of the deposited data

Results flagged for a closer look

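CFTR moved in opposite directions in the 2 states. Every control library with IMP1088 or DDD86481 lay above every control DMSO library, and every senescent library with an inhibitor lay below every senescent DMSO library. The effect in senescent minus control cells was -2.89 ± 0.59 (SE) on the log2 scale with IMP1088 and -3.49 ± 0.64 with DDD86481. The difference was not tested, because CFTR was chosen by these comparisons.

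Of the list genes named by the rule on size, 16 are given here. Their response to an inhibitor differed between states in the interaction term of edgeR's quasi-likelihood fit, adjusted over all genes. That term was called for 26.2% of all genes with IMP1088 and 30.3% with DDD86481. The 16 were named for a large called change with an inhibitor in these same libraries. That change is part of the term, so the naming rule favours a difference, and nothing is read from the number. These terms were not repeated in any alternative, including the fit without control DMSO replicate 3. Genes of retinoid handling differed in both directions. CYP26B1 was lower by the interaction (-3.68 with IMP1088, adjusted p = 8.55e-07, and -3.63 with DDD86481, adjusted p = 1.17e-06), and CRABP2 was higher (1.86, adjusted p = 8.26e-05, and 1.70, adjusted p = 0.000215). Among enzymes that conjugate or oxidise, TPMT differed by 1.34 with IMP1088 (adjusted p = 2.67e-05), CYP1B1 by 1.52 with DDD86481 (adjusted p = 2.57e-05) and NNMT by 1.71 (adjusted p = 0.00129) and 1.80 (adjusted p = 0.000765). Of fibrinogen-like proteins, ANGPTL2 differed by -1.66 with IMP1088 (adjusted p = 1.15e-05) and FIBCD1 by 1.56 with IMP1088 (adjusted p = 0.000586) and 0.89 with DDD86481 (adjusted p = 0.0239).

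In the WNT list, NKD2 differed by -3.22 with IMP1088 (adjusted p = 2.57e-05) and -3.33 with DDD86481 (adjusted p = 1.85e-05), LEF1 by -2.30 (adjusted p = 6.06e-07) and -2.46 (adjusted p = 3.19e-07), and SFRP1 by 1.21 (adjusted p = 5.2e-06) and 1.09 (adjusted p = 1.48e-05). LEF1 was higher with NMTi in control cells and lower in senescent cells, the direction of CFTR. In the myofibroblast list, SULF1 differed by 3.41 with IMP1088 (adjusted p = 4.96e-07) and 2.90 with DDD86481 (adjusted p = 5.1e-06), LRRC32 by -1.90 (adjusted p = 4.19e-07) and -2.08 (adjusted p = 1.42e-07), and MYH11 by 2.72 with DDD86481 (adjusted p = 0.0341), where its senescent libraries were near the floor. ITGA8 differed by -3.21 with IMP1088 (adjusted p = 0.000654) and -3.42 with DDD86481 (adjusted p = 0.000355), ANO1 by -1.18 with DDD86481 (adjusted p = 0.0105) and SLC26A2 by -0.56 with DDD86481 (adjusted p = 0.0376).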

How the results depend on the processing

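Small differences of ADH1B in control cells changed sign when a library was left out, from -0.09 to 0.14 with IMP1088 (also -0.02 with upper quartile scaling) and from -0.36 to 0.16 with DDD86481. So did IMP1088 against DDD86481 for ADH1B, FMO2 and CFTR in control cells and for MXRA5 and LRRC15 in senescent cells. No other difference of the 8 genes changed direction in the alternatives run. Nor did any called difference of the named list genes, whose interaction terms were not repeated. Without control DMSO replicate 3, an alternative chosen after seeing the data, 4 list counts moved by over 1.5 times and are given with their lists. Fitting only the groups compared gave 2716 calls in place of 4829 for IMP1088 in control cells and 2842 in place of 5242 for DDD86481 in control cells. In senescent cells this alternative gave 7841 in place of 6374 with IMP1088 and 6086 in place of 6189 with DDD86481. Such a fit takes the spread from fewer libraries, and why the counts moved was not tested. Leaving out 1 library at a time gave 9239 to 10027 calls for senescence with DMSO (9827 with all), 5454 to 5617 for IMP1088 and 5282 to 5812 for DDD86481 in senescent cells, 3505 to 5892 for IMP1088 and 3773 to 6317 for DDD86481 in control cells, and 2738 to 5242 and 3419 to 5796 for the difference of the IMP1088 and DDD86481 effects between states. IMP1088 against DDD86481 stayed at 0 calls, with 1 call in senescent cells when low counts were not filtered. Upper quartile scaling shifted the median gene by -0.155 on the log2 scale in senescence and gave 3795 higher and 6149 lower in place of 4663 and 5164. A replicate block gave 9913 calls for senescence and 5003 for IMP1088 in control cells, and the pairing moved no count by over 1.5 times. Of the repeats for named list genes, which did not cover the interaction terms, 953 kept their side of the threshold and 43 lost it. Those concerned BEST1 and ANGPTL4 in senescent cells, SULF1 with DDD86481 in senescent cells, TNXB, CRABP2 and SLC26A2 in control cells and POR in senescence, and no rise or fall is stated for these genes in those comparisons. Depth limits the values of APCDD1 and CFTR in senescent cells, where libraries held 18 counts or fewer, and of the genes at 0.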
